A study of Homo sapiens with 12 samples.

Results

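The genes described here are the ATP-binding cassette (ABC) transporter family in a pair of human melanoma cell lines. Members were taken by symbol alone, as protein-coding genes named ABC, a letter from A to G and digits, a rule that uses no measured value. The rule gave 45 of 19557 protein-coding genes, out of 33694 gene identifiers listed. Among them, 8 drug efflux members (ABCB1, ABCB5, ABCC1 to ABCC5 and ABCG2) are described apart. Libraries came from A375, an established human melanoma line that carries mutant, constantly active BRAF, and from A375-BIR, which the labels give as resistant to BRAF inhibitors. Each line received dabrafenib, a BRAF kinase inhibitor, at 200 nM or the solvent DMSO at 0.1%, for 48 h, so that the groups were A375-BIR with dabrafenib, A375-BIR with DMSO, A375 with dabrafenib and A375 with DMSO. The labels call the libraries biological replicates and do not say how A375-BIR was made, whether it is a single clone, or whether separate cultures were used, so p-values measure the spread between these libraries, which may be technical.

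ABC proteins bind and split ATP in a pair of conserved domains, and most use that energy to move lipids, metal cofactors, peptides, conjugates or drugs across a membrane. Some carry the whole pump in a single chain, and shorter members must pair to form it. Subfamilies E and F have the ATP-binding domains with no membrane part and work on ribosomes, and several members of subfamilies B, C and G are known for pumping anticancer drugs out of cells.

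Usable were 3 libraries of each group except A375 with DMSO, which had 1, because the files of its other replicates list mouse identifiers. Gene counts ranged from 198690 to 1999840 per library, and 3 counts, the most that a count of 0 allows, corresponded to 1.5 to 15.1 CPM in a library, where CPM are counts rescaled to a common library total. The lone A375 DMSO library also carries another run stamp than the other 9 libraries. It shares that stamp with A375 DMSO replicates 2 and 3, the files that list mouse identifiers. Those files held 39.5% and 41.5% of their reads on genes, against 20.4% to 31.1% in the human ones. The stamp is a number in the deposited name, which the sample labels used here do not explain. Effects that go with the stamp and with the group cannot be told apart wherever that library is used. Reads in no annotated feature were 20.1% of its total, against 28.6% to 30.9% in the other 9, and reads mapped to several places 52.5%, against 40.0% to 49.4%. Mitochondrial transcripts made up 4.88% to 7.21% of gene counts in A375-BIR with dabrafenib, 4.63% to 5.49% in A375-BIR with DMSO, 10.7% to 15.1% in A375 with dabrafenib and 15.1% in A375 with DMSO. DUSP6, an ERK phosphatase gene induced by the pathway that dabrafenib blocks, averaged 27.1 ± 6.53 CPM in A375 with dabrafenib (SD, n = 3) and 138 CPM in that DMSO library (log2 change -2.35 ± 0.33). The nuclear RNA MALAT1 took 2.36% to 5.78%, 2.54% to 3.18%, 5.08% to 8.60% and 2.60% of gene counts in the same groups. Summed melanocyte lineage markers (7 genes, among them SOX10) stood at 212 to 313 CPM in A375-BIR with dabrafenib, 193 to 212 CPM with DMSO in that line, 2815 to 3335 in A375 with dabrafenib and 1349 in A375 with DMSO. In the same groups 3, 2, 0 and 2 of the 7 had no count. The 4 markers of a dedifferentiated melanoma state, among them AXL, went the other way between the lines, at 679.7 to 782 and 779 to 847 CPM in A375-BIR with dabrafenib and with DMSO, against 283 to 293 and 81.6 CPM in A375 with dabrafenib and with DMSO. Fibroblast (6 genes) and leukocyte (3 genes) markers summed to at most 30.9 and 46.6 CPM in any library, and endothelial and keratinocyte markers to at most 1.01 and 5.64 CPM. The part of these marker and mitochondrial differences in the values below was not tested.

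The family was thinly covered, with 0.0792% to 0.116% of gene counts per library. No count at all was found for 7 members: ABCA4, the retinal lipid transporter, ABCB11, the bile salt pump, ABCC8, a subunit of potassium channels of beta cells, ABCC11, ABCC12, ABCD2 and ABCG8, a partner of ABCG5 in sterol export. Another 9 had under 10 counts over the 10 libraries (ABCA6, ABCA9, ABCA12, ABCB5, ABCC6, ABCC9, ABCG1, ABCG4 and ABCG5). A further 11 had 10 to 84 counts and did not pass the filter on low counts: ABCA1, ABCA3, ABCA7, ABCA10, ABCA13, ABCB4, ABCB8, ABCB10, ABCC1, ABCC10 and ABCG2. The remaining 18 members, with 37 to 2925 counts, were tested together with all other genes. Because the filter asks for counts in at least 1 library, a rare member could pass through the group where it was high. Libraries of a single group alone reached the 17.5 CPM that the filter asks for in 6 of the 18, among them ABCC3 (A375-BIR with dabrafenib), ABCB1 (A375 with DMSO), and ABCA8, ABCB6 and ABCF3 (A375 with dabrafenib). ABCB9 reached that level only in A375 libraries, of either treatment. Such members had to differ to be tested, and the counts of called members below include them. Of the 18, 15 were called in at least 1 of 5 comparisons, where called means an adjusted p under 0.05 by the edgeR quasi-likelihood test with Benjamini-Hochberg adjustment over 10236 genes. ABCC5, ABCD4 and ABCF3 were called in none.

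**Figure D1:**
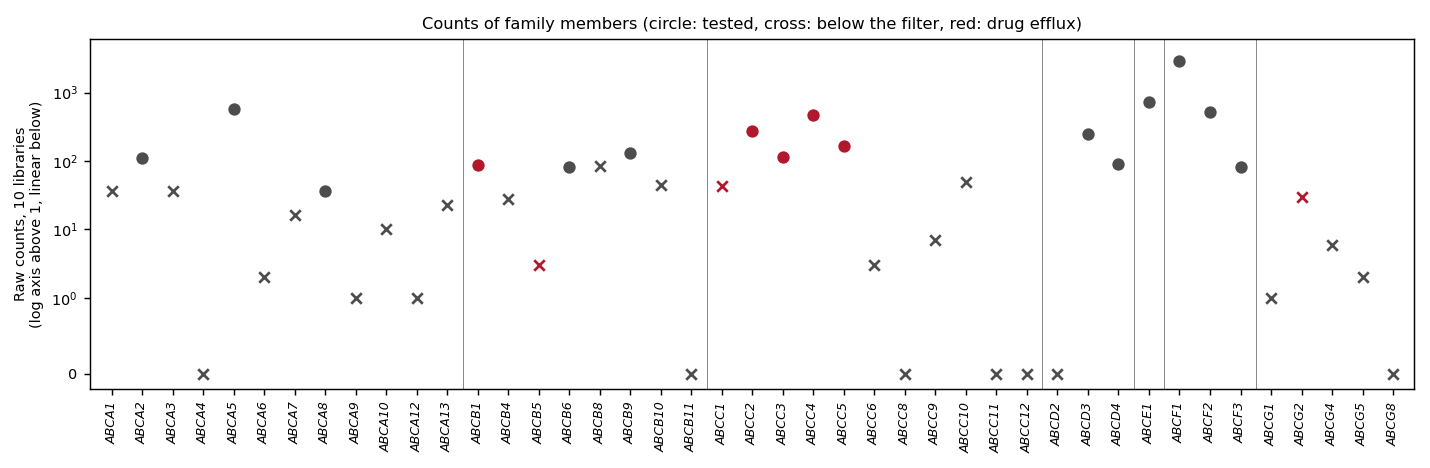
Raw read counts summed over the 10 human libraries (y axis, log scale above 1 and linear below) for the family members reported by name (x axis, by subfamily). Circles are tested members, crosses those below the filter, and red marks the 8 drug efflux members, of which ABCB5 had 3 counts.

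ABCC3, an exporter of glucuronide and glutathione conjugates, was the drug efflux gene that rose with dabrafenib in A375-BIR. In CPM, here with totals scaled by TMM, it stood at 56.2, 24.5 and 41.4 in A375-BIR with dabrafenib, against 5.08, 7.06 and 11.8 in A375-BIR with DMSO. In A375 it stood at 2.06, 6.70 and 5.64 with dabrafenib, against 0.628 with DMSO. Every A375-BIR dabrafenib library lay above every library of the other groups. These levels rest on 89, 20, 5 and 1 raw counts in A375-BIR with dabrafenib, A375-BIR with DMSO, A375 with dabrafenib and A375 with DMSO. Dabrafenib raised ABCC3 in A375-BIR by 2.52 ± 0.38 on the log2 scale (adjusted p = 4.69e-05), where the ± of a log2 change is its approximate standard error. Leaving out any 1 library gave 2.09 to 2.80, each with a call. ABCC3 passed the filter through A375-BIR with dabrafenib alone, where it was high, so tests that use that group are no independent support. With no filter edgeR gave a change of 2.50 (adjusted p = 1.43e-08). In A375 the ratio of dabrafenib to DMSO was 7.17, with a 95% counting interval of 0.803 to 339, and was not called (adjusted p = 0.115), and the responses of the lines were not shown to differ (adjusted p = 0.93). Between the lines ABCC3 was higher in A375-BIR, with a ratio of 9.84 (4.06 to 31.0) in dabrafenib (adjusted p = 8.7e-06) and 11.5 (1.84 to 478) in DMSO (adjusted p = 0.00786). The DMSO contrast lost its call with DESeq2 (adjusted p = 0.0618). In bulk RNA, more cells that express a gene and more RNA per cell cannot be told apart, here and below.

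ABCC4, which exports cyclic nucleotides and conjugates, responded differently in the lines. It stood at 52.4, 82.2 and 77.6 CPM in A375-BIR with dabrafenib, against 39.0, 48.4 and 47.4 CPM in A375-BIR with DMSO. The A375 libraries showed 39.2, 60.3 and 39.5 CPM with dabrafenib, against 102 CPM with DMSO. The drug libraries lay above the DMSO ones in A375-BIR and below the DMSO library in A375. The A375-BIR change of 0.61 ± 0.23 was not called (adjusted p = 0.177), while A375 fell by 1.09 on the log2 scale (adjusted p = 0.0036). The difference between these responses was 1.70 ± 0.38 (adjusted p = 0.0012), and it held without any 1 of the other 9 libraries (1.53 to 1.98). Between the lines ABCC4 was lower in A375-BIR in DMSO (-1.19 ± 0.26, adjusted p = 0.00025) and was not called in dabrafenib (0.51 ± 0.27, adjusted p = 0.127).

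ABCB1, the multidrug pump P-glycoprotein, was not called higher in the resistant line in either condition. It stood at 8.57, 5.25 and 10.4 CPM in A375-BIR with dabrafenib, against 7.63, 5.04 and 6.77 CPM in A375-BIR with DMSO. The A375 libraries held 10.3, 8.93 and 11.3 CPM with dabrafenib, against 26.4 CPM with DMSO. The A375 DMSO library stood above all others, and the A375-BIR groups overlapped. ABCB1 fell with dabrafenib in A375 (-1.40 ± 0.52, adjusted p = 0.0307), a call lost without A375 dabrafenib replicate 1 or 2 (-1.44 to -1.30). It was lower in A375-BIR than in A375 in DMSO (-1.99 ± 0.45, adjusted p = 0.000401), and not called in dabrafenib (-0.31 ± 0.58). ABCB1 passed the filter through the A375 DMSO library alone, and with no filter these changes were -1.48 (adjusted p = 0.0318) and -2.01 (adjusted p = 0.000143). The call in A375 was also lost with plain library totals (adjusted p = 0.0877), DESeq2 (0.196) and the replicate block (0.117). Because ABCB1 passed the filter only in the library where it was high, tests that use that library are no independent support. RUNDC3B overlaps ABCB1 on the other strand, away from its 3′ end, and had 42 counts in all.

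ABCC2, the conjugate pump of apical membranes, was lower in A375-BIR by calls that few alternatives kept. Its level was 26.7, 26.2 and 56.9 CPM in A375-BIR with dabrafenib, against 30.5, 22.2 and 27.1 CPM in A375-BIR with DMSO. A375 held 59.8, 51.3 and 56.4 CPM with dabrafenib, against 45.8 CPM with DMSO. A375-BIR dabrafenib replicate 3 reached the A375 level and its fellow replicates did not. The difference between the lines was -0.74 ± 0.30 in dabrafenib (adjusted p = 0.0455) and -0.78 ± 0.32 in DMSO (adjusted p = 0.039). The call in DMSO was lost without any 1 of the 3 A375-BIR DMSO libraries (-0.91 to -0.65), with plain library totals (-0.37, adjusted p = 0.335), with DESeq2 (-0.78, 0.181) and with the replicate block (-0.78, 0.0666). The call in dabrafenib was lost without any 1 of 8 libraries, namely A375-BIR dabrafenib replicates 1 and 2 and each A375-BIR DMSO and A375 dabrafenib library (-0.82 to -0.51), and in 5 of 6 other settings (-0.73 to -0.62).

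Of the other drug efflux members, ABCC5 was tested and not called, and ABCC1, ABCG2 and ABCB5 were below the filter and not tested. ABCC5, an exporter of cyclic nucleotides, stood at 20, 22.7 and 12.9 CPM in A375-BIR with dabrafenib and 22, 25.2 and 15.2 CPM in A375-BIR with DMSO. The A375 libraries held 14.4, 31.2 and 28.2 CPM with dabrafenib and 27.0 CPM with DMSO, and the groups of 3 libraries overlapped. ABCC1, an exporter of glutathione conjugates that was below the filter, ranged from 2.59 to 14.0 CPM in A375-BIR with dabrafenib, 0.847 to 10.2 CPM in A375-BIR with DMSO and 2.23 to 16.5 CPM in A375 with dabrafenib, with 2.51 CPM in A375 with DMSO. Its spread within a group exceeded any difference between groups. ABCG2, the breast cancer resistance protein and also below the filter, held 6.66, 1.75 and 10.4 CPM in A375-BIR with dabrafenib and 5.08, 5.04 and 6.77 CPM in A375-BIR with DMSO. Its A375 libraries had 0, 2.23 and 0 CPM with dabrafenib and 1.26 CPM with DMSO, on 1 and 2 counts. The ratio of A375-BIR to A375 was 6.63 (95% counting interval 0.981 to 284) in dabrafenib and 4.32 (1.01 to 39.0) in DMSO. Without a filter edgeR called ABCG2 in neither. ABCB5, described as a drug efflux protein of melanoma cells, had no count in A375-BIR and 3 counts in A375, 2 of them in a dabrafenib library. In the A375-BIR groups a total of 0 still allows 1.49 CPM with dabrafenib and 1.09 CPM with DMSO, so that no difference in ABCB5 was detectable at this depth.

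**Figure D2:**
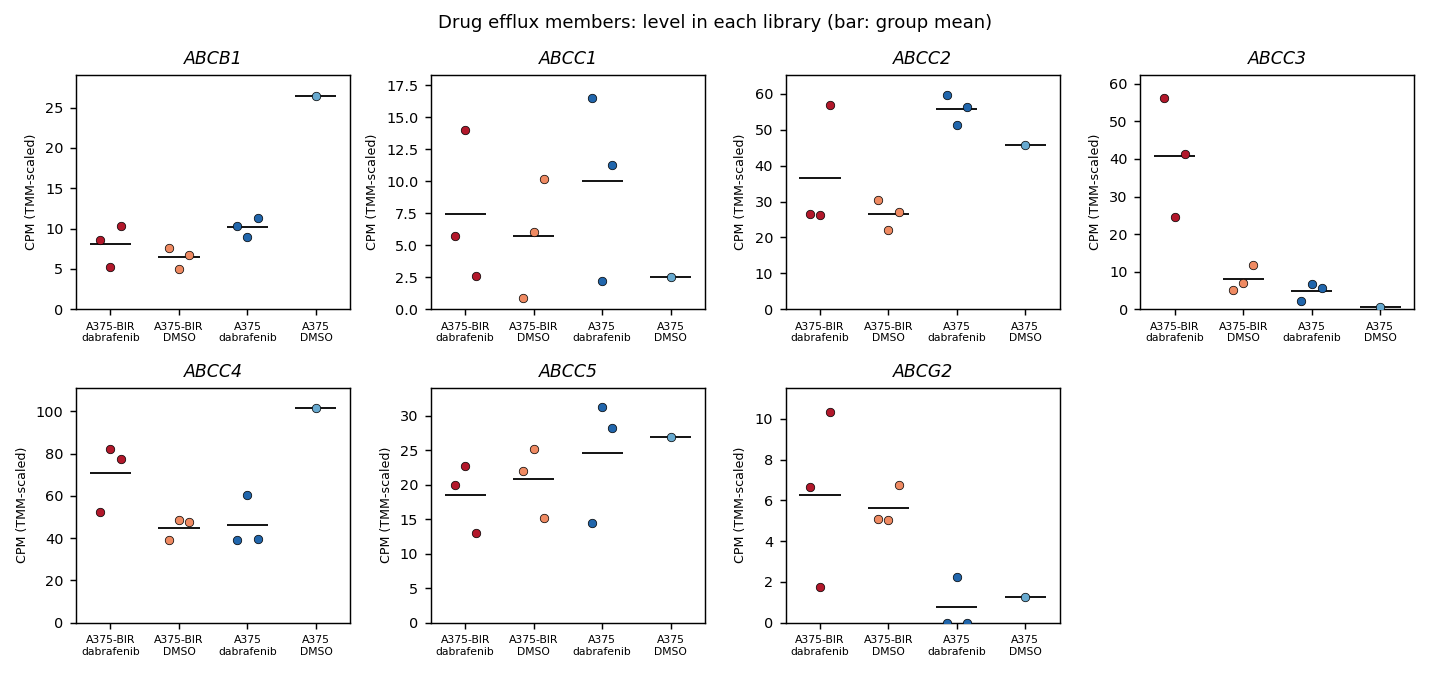
Level of each drug efflux member with at least 10 counts (y axis, TMM-scaled CPM, each panel with its own scale) by group (x axis); points are libraries (n = 3, but 1 for A375 with DMSO) and bars group means. ABCC3 is highest in the 3 A375-BIR dabrafenib libraries (24.5 to 56.2 CPM), while ABCB1 and ABCC4 are highest in the A375 DMSO library.

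Summed over the 8 drug efflux members, the level was 188 ± 20.7 CPM in A375-BIR with dabrafenib, 118 ± 7.59 CPM in A375-BIR with DMSO, 154 ± 8.36 CPM for A375 with dabrafenib (SD, n = 3 each) and 206 CPM in A375 with DMSO. The whole family summed to 877.8 ± 79.4, 774 ± 7.43, 1165 ± 55.9 and 1459 CPM in the same groups. The order of the drug efflux sums turned with the scaling, since plain library totals gave 193, 124, 146 and 164 CPM.

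Among lipid transporters, ABCA5, an endolysosomal protein linked to cholesterol handling, was higher in A375 and rose there with dabrafenib. It stood at 30.5, 36.7 and 67.3 CPM in A375-BIR with dabrafenib, against 28.8, 36.3 and 42.3 CPM in A375-BIR with DMSO. The A375 libraries showed 217, 214 and 248 CPM with dabrafenib, against 102 CPM with DMSO. Each A375 library lay above each A375-BIR library, and the A375 dabrafenib libraries lay above the A375 DMSO library. ABCA5 rose with dabrafenib in A375 by 1.13 ± 0.27 (log2, adjusted p = 0.000914), and the A375-BIR change was 0.23 ± 0.27. It was lower in A375-BIR by -2.45 ± 0.24 in dabrafenib (adjusted p = 7.48e-11) and by -1.54 ± 0.27 in DMSO (adjusted p = 1.39e-05). These calls held in each fit without 1 library that gave a value. The difference between responses was -0.90 ± 0.37 and was not called (adjusted p = 0.0772), though it was with plain library totals (-1.18, adjusted p = 0.0199). It was also called without A375-BIR dabrafenib replicate 3 (-1.20), the library at 67.3 CPM.

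ABCA5 lies at 69244311 to 69327244 on the minus strand of chromosome 17 (GRCh38, GENCODE 29), at the end of a cluster of 5 ABCA genes that spans 460 kb. Of the others, ABCA8 (68867292 to 68955392), which has been linked to cholesterol export, had 37 counts, ABCA10 had 10, ABCA6 had 2 and ABCA9 had 1, against 581 for ABCA5. The 3′ end of ABCA5 lies inside ABCA10 on the same strand, so that reads of that pair could be divided wrongly. ABCA8 stood at 1.90, 0 and 2.59 CPM in A375-BIR with dabrafenib, against 0.847, 0 and 0 CPM in A375-BIR with DMSO. Its A375 libraries held 14.4, 15.6 and 28.2 CPM with dabrafenib, against 8.79 CPM with DMSO. No A375-BIR library reached any A375 library. The ratio of A375-BIR to A375 was 0.0873 (95% counting interval 0.0165 to 0.297) in dabrafenib and 0.0412 (0.000974 to 0.271) in DMSO. With 3 counts and 1 count in the A375-BIR groups, ABCA8 passed the filter only through A375, and its tests are therefore no independent support. Without A375-BIR DMSO replicate 1 no count remains in that group, and the fitted log2 value, which is then no bound, was -5.65 in place of -4.09.

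ABCA1, which hands cholesterol and phospholipid to apolipoprotein A-I, was seen in A375-BIR alone. It held 14.3, 5.25 and 0 CPM in A375-BIR with dabrafenib and 5.93, 7.06 and 8.46 CPM in A375-BIR with DMSO. All 4 A375 libraries had 0 counts, which allows up to 2.70 CPM over the A375 dabrafenib group and 1.88 CPM in A375 with DMSO. Against 3 counts over the A375 group, the observed A375-BIR level was 3.32-fold higher in dabrafenib and 3.65-fold higher in DMSO. The A375-BIR counts entered without their own counting error, so these folds are not lower bounds. In A375-BIR with dabrafenib the counts were 15, 3 and 0. ABCA1 was below the filter, and without a filter edgeR gave adjusted p = 0.00272 and 0.0016. ABCA2, a lipid transporter of late endosomes and lysosomes, held 20.9, 3.5 and 15.5 CPM in A375-BIR with dabrafenib, against 11.9, 13.1 and 15.2 CPM in A375-BIR with DMSO. The A375 libraries held 4.12, 8.93 and 11.3 CPM with dabrafenib, against 23.2 CPM with DMSO, and the A375 dabrafenib libraries all lay below. It fell with dabrafenib in A375 (-1.66 ± 0.60, adjusted p = 0.0258), a call lost without A375 dabrafenib replicate 1 or 2 (-1.89 to -1.26). That call was also lost with plain library totals, DESeq2 and the replicate block. ABCA3, which loads surfactant lipid in lung, had 13, 19, 1 and 4 counts in A375-BIR with dabrafenib, A375-BIR with DMSO, A375 with dabrafenib and A375 with DMSO, and ABCA7, a phospholipid exporter, had 1, 3, 3 and 9. ABCA13 had 6, 14, 2 and 1 counts, and ABCB4, the phosphatidylcholine flippase of bile, 7, 14, 2 and 5.

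Of the members tied to mitochondria, ABCB6, a porphyrin transporter also found in other membranes, was lower in A375-BIR. It stood at 4.76, 5.25 and 2.59 CPM in A375-BIR with dabrafenib, against 8.47, 5.04 and 3.39 CPM in A375-BIR with DMSO. The A375 libraries held 33.0, 17.9 and 33.8 CPM with dabrafenib, against 16.3 CPM with DMSO. No A375-BIR library overlapped the A375 range. The difference between the lines was -2.56 ± 0.54 in dabrafenib (adjusted p = 0.000197) and -1.40 ± 0.52 in DMSO (adjusted p = 0.0237). The DMSO call was lost without A375-BIR DMSO replicate 2 or 3 (-1.27 to -1.23), with plain library totals (-1.0, adjusted p = 0.108), with DESeq2 (0.117) and with the replicate block (0.127). ABCB6 passed the filter through A375 with dabrafenib alone, and with no filter the differences were -2.52 (adjusted p = 4.73e-05) and -1.42 (adjusted p = 0.0244). Because ABCB6 was high in that group, its test between the lines in dabrafenib is no independent support. ABCB10 is a transporter of the inner mitochondrial membrane needed for heme formation in red cell precursors. Below the filter, it had 20, 19, 4 and 1 counts in A375-BIR with dabrafenib, A375-BIR with DMSO, A375 with dabrafenib and A375 with DMSO. Its ratio of A375-BIR to A375 was 2.76 (95% counting interval 0.926 to 11.1) in dabrafenib and 11 (1.74 to 455) in DMSO. ABCB8, another mitochondrial member below the filter, had 14, 26, 10 and 34 counts, with a ratio between the lines of 0.774 (0.320 to 1.95) in dabrafenib and 0.441 (0.254 to 0.757) in DMSO. Without a filter edgeR gave ABCB10 adjusted p = 0.183 in dabrafenib and 0.0138 in DMSO, and ABCB8 0.767 in dabrafenib and 0.0341 in DMSO. ABCC10, a drug exporter outside the 8 set apart, had 15, 13, 16 and 6 counts. Its A375 libraries held 14.4, 13.4 and 16.9 CPM with dabrafenib, against 3.77 CPM with DMSO. The ratio was 3.82 (95% counting interval 1.42 to 11.9), and without a filter edgeR did not call that change (1.81 on the log2 scale).

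Among the peroxisomal and lysosomal members, ABCB9, a lysosomal peptide transporter, was low throughout A375-BIR. It stood at 4.76, 1.75 and 2.59 CPM in A375-BIR with dabrafenib, against 7.63, 7.06 and 5.08 CPM in A375-BIR with DMSO. The A375 libraries held 14.4, 31.2 and 16.9 CPM with dabrafenib, against 49.6 CPM with DMSO. Every A375 library lay above every A375-BIR library. Between the lines it was lower in A375-BIR by -2.58 ± 0.56 in dabrafenib (adjusted p = 0.000305) and by -2.83 ± 0.39 in DMSO (adjusted p = 1.82e-07). Both calls held in each fit without 1 library that tested it, none of them without the A375 DMSO library. ABCB9 reached the filter in A375 libraries alone, where it was high, so these tests are no independent support. With no filter edgeR gave -2.54 in dabrafenib (adjusted p = 0.000177) and -2.85 in DMSO. ABCB9 fell with dabrafenib in A375 (-1.19 ± 0.39, adjusted p = 0.0143), a call lost without A375 dabrafenib replicate 1 (-0.88), with plain library totals and with DESeq2. ARL6IP4 and OGFOD2 overlap ABCB9 on the other strand, with 843 and 86 counts, and the strand setting of the counting is not given in the sources used here.

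ABCD3, which imports branched chain acyl groups and bile acid precursors, held 40.0, 42.0 and 54.3 CPM in A375-BIR with dabrafenib, against 30.5, 28.2 and 33.9 CPM in A375-BIR with DMSO. The A375 libraries held 41.2, 37.9 and 33.8 CPM with dabrafenib, against 19.5 CPM with DMSO, so that the drug libraries lay above the DMSO ones in both lines. ABCD3 rose in A375 (0.98 ± 0.37, adjusted p = 0.0336), a call lost without A375-BIR DMSO replicate 1 or A375 dabrafenib replicate 1 or 2 (0.91 to 1.00). That call was also lost with no filter, DESeq2 and the replicate block. The A375-BIR change of 0.52 ± 0.25 was not called (adjusted p = 0.333). ABCD4, a lysosomal cobalamin transporter, averaged 16.3 ± 4.36 CPM in A375-BIR with dabrafenib, 10.9 ± 3.83 CPM in A375-BIR with DMSO, 15.4 ± 6.37 CPM for A375 with dabrafenib (SD, n = 3 each) and 10.7 CPM in A375 with DMSO.

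The members without a membrane part held most of the family's raw counts. ABCF1, which binds initiation factor eIF2, stood at 317, 220.4 and 311 CPM in A375-BIR with dabrafenib, against 258, 285 and 251 CPM in A375-BIR with DMSO. The A375 libraries showed 445, 413 and 451 CPM with dabrafenib, against 709.6 CPM with DMSO. Each A375 library lay above each A375-BIR library, and the A375-BIR groups overlapped. ABCF1 was lower in A375-BIR by -0.62 ± 0.17 in dabrafenib (adjusted p = 0.004) and by -1.42 ± 0.21 in DMSO (adjusted p = 6.45e-07), and both calls held in each fit without 1 library that gave a value. It fell with dabrafenib in A375 (-0.70 ± 0.22, adjusted p = 0.0102), a call lost without A375 dabrafenib replicate 2 (-0.66) and with plain library totals (-0.45, adjusted p = 0.112). The responses differed by 0.80 ± 0.28 (adjusted p = 0.0346). That call was lost without A375-BIR dabrafenib replicate 1, any A375-BIR DMSO library or A375 dabrafenib replicate 1 or 2 (0.69 to 0.86). It was also lost with plain library totals, DESeq2 and the replicate block.

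ABCF2, a cytoplasmic member of the same subfamily, held 77.1, 45.5 and 72.5 CPM in A375-BIR with dabrafenib, against 55.9, 58.5 and 42.3 CPM in A375-BIR with DMSO. A375 held 70.1, 64.7 and 39.5 CPM with dabrafenib, against 107 CPM with DMSO, the highest library. It was lower in A375-BIR than in A375 in DMSO (-1.0 ± 0.26, adjusted p = 0.00145), a call lost with plain library totals (-0.60, adjusted p = 0.0628), and not called in dabrafenib (0.087 ± 0.26). It fell in A375 with dabrafenib (-0.78 ± 0.29, adjusted p = 0.0296), a call lost without A375 dabrafenib replicate 2 or 3 (-0.81 to -0.66). That call was also lost with plain library totals, a mean count of at least 50, DESeq2 and the replicate block. The responses differed by 1.09 ± 0.37 (adjusted p = 0.0297). That call was lost without A375-BIR dabrafenib replicate 1, A375-BIR DMSO replicate 1 or 3 or A375 dabrafenib replicate 2 or 3 (0.87 to 1.14). It was also lost with plain library totals, DESeq2 and the replicate block. A gene not listed in the files, AC021097.2, covers the 3′ end of ABCF2, and ABCF2 has pseudogene copies, so that its values are uncertain.

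ABCE1, which splits ribosomes after termination, held 86.6, 115 and 109 CPM in A375-BIR with dabrafenib, against 128, 120.0 and 122 CPM in A375-BIR with DMSO. A375 held 59.8, 44.6 and 107 CPM with dabrafenib, against 78.5 CPM with DMSO, and A375 dabrafenib replicate 3 lay apart from its fellow replicates, within the range of A375-BIR with dabrafenib. It was higher in A375-BIR in dabrafenib (0.69 ± 0.25, adjusted p = 0.0238), lost without A375 dabrafenib replicate 1 or 2 (0.42 to 0.63), and in DMSO (0.65 ± 0.26, adjusted p = 0.0342), lost without any 1 A375-BIR DMSO library (0.62 to 0.68). The dabrafenib call was also lost at a mean count of at least 50, with DESeq2 and with only the libraries compared. The DMSO call was also lost with no filter, DESeq2 and the replicate block. The 3′ end of ABCE1 is covered by OTUD4 on the other strand, which had 408 counts. ABCF3 averaged 9.64 ± 4.09 CPM in A375-BIR with dabrafenib, 9.79 ± 3.84 CPM in A375-BIR with DMSO, 16.5 ± 6.01 CPM for A375 with dabrafenib (SD, n = 3 each) and 10.0 CPM in A375 with DMSO.

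**Figure D3:**
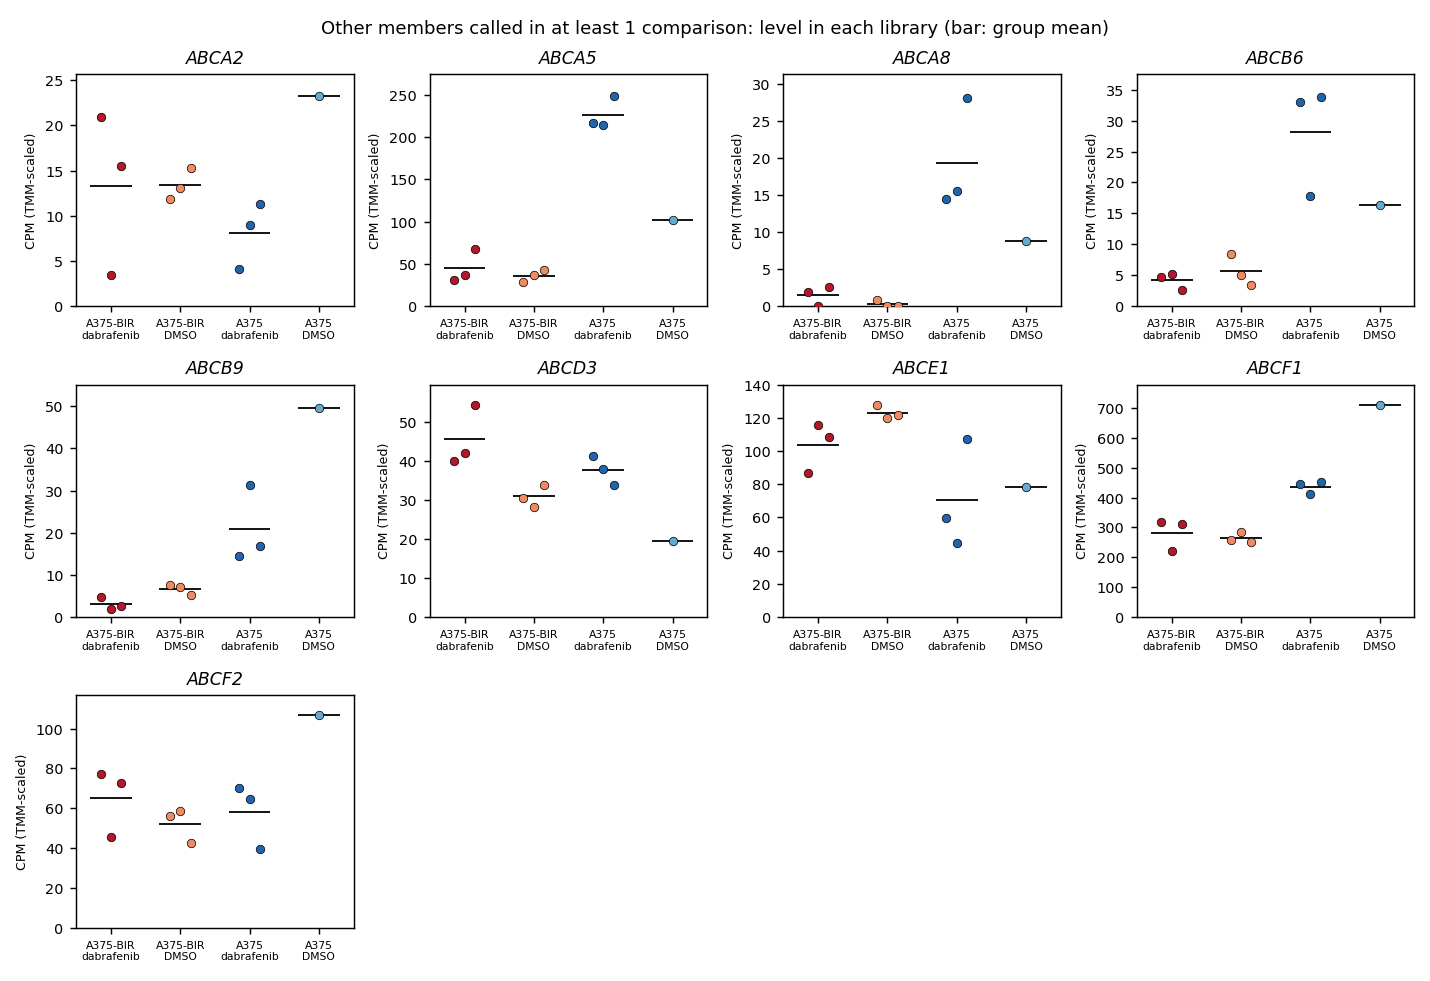
Level of called members reported by name outside the drug efflux genes (y axis, TMM-scaled CPM, each panel with its own scale) by group (x axis); points are libraries (n = 3, but 1 for A375 with DMSO) and bars group means. ABCA5 reaches 214 to 248 CPM in A375 with dabrafenib, and ABCB9 and ABCF1 lie lower in every A375-BIR library than in every A375 library.

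In the response of A375-BIR to dabrafenib, which asks what the drug changes in resistant cells, ABCC3 was the single member called. It was higher, as 1 of 18 tested members (5.56%), where 2.46% of all genes tested were called, 1.36% higher and 1.1% lower. Because ABCC3 passed the filter through A375-BIR with dabrafenib alone, that share is no independent support. The drug efflux list thus had 1 of 5 tested members higher and none lower, and the sterol and phospholipid, mitochondrial, peroxisomal and lysosomal, and ribosome lists had none called of 2, 2, 4 and 4 tested. The median log2 change was 0.19 over the tested members and 0.018 over all genes. At an unadjusted p under 0.05 edgeR counted 3 members, ABCC3, ABCC4 and ABCD3. The groups share a run stamp. DESeq2 called no member here, since it gave ABCC3 an unadjusted p of 5.60e-06 (log2 change 2.47) and no adjusted p.

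In the response of A375, which asks the same of the parental line, ABCA5 and ABCD3 rose, and those that fell included ABCA2, ABCB1, ABCB9, ABCC4, ABCF1 and ABCF2. In all 2 rose and 8 fell, 10 of 18 tested members (55.6%), where 38.6% of all genes were called, 17.9% higher and 20.7% lower. Among drug efflux members 2 of 5 fell and none rose. The median log2 change was -0.26 over tested members and 0 over all genes. With plain library totals the median of all genes moved to 0.26 and the members counted 2 higher and 1 lower (median 0.011), while all genes counted 2565 higher and 1489 lower against 1833 and 2115 with TMM. Without A375 dabrafenib replicate 1 or 2 the count of called members was 4 or 3, DESeq2 called ABCA5, ABCC4 and ABCF1, and ABCA5 and ABCC4 were the 2 calls that held under every alternative.

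The test of whether the lines responded differently called ABCC4, ABCF1 and ABCF2, each with a higher response in A375-BIR. That is 3 of 18 tested members (16.7%), where 22.6% of all genes were called, 12.7% higher and 9.87% lower in this sense. The median difference was 0.25 over tested members and 0.037 over all genes. With plain library totals, ABCC4 (1.42) and, in the other direction, ABCA5 were called, and all genes counted 810 higher and 1549 lower against 1303 and 1010 with TMM. The count was 1 without A375-BIR dabrafenib replicate 1, A375-BIR DMSO replicate 1 or 3 or A375 dabrafenib replicate 2, and 5 without A375-BIR dabrafenib replicate 3.

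**Figure D4:**
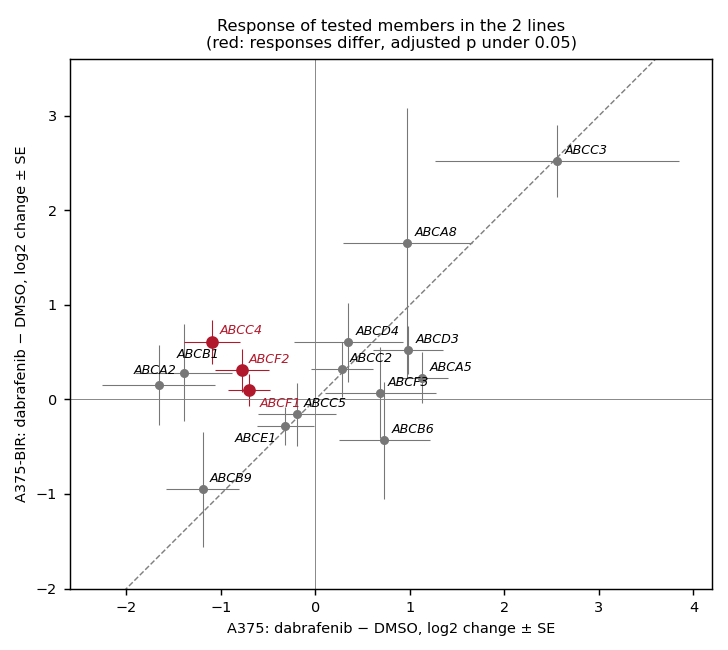
Log2 change with dabrafenib of tested members reported by name in A375 (x axis) and in A375-BIR (y axis), with approximate standard errors as bars and the dashed line where responses are equal. ABCC4, ABCF1 and ABCF2 (red) are the members whose responses differ by the test, and ABCC3 lies near the line with a wide error in A375.

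The regions before those 3 genes and before ABCA5 are shown because these are the members whose response differed and the one with the smallest adjusted p between the lines in dabrafenib. Each is a RefSeq window (GRCh38.p14) from 250 bases before to 50 bases after the annotated start, 5′ to 3′ on the gene's strand. Capitals mark the E-box CACGTG, the MITF-type M-box TCATGTG, the AP-1 site TGACTCA, the core of the antioxidant response element (ARE) TGACNNNGC and the ETS core CCGGAAG, searched on both strands, where AP-1 and ARE letters can overlap. The windows lie at chr13:95301402-95301701 (minus strand) for ABCC4, chr6:30571192-30571491 (plus strand) for ABCF1, chr7:151227156-151227455 (minus strand) for ABCF2 and chr17:69327084-69327383 (minus strand) for ABCA5.
ABCC4: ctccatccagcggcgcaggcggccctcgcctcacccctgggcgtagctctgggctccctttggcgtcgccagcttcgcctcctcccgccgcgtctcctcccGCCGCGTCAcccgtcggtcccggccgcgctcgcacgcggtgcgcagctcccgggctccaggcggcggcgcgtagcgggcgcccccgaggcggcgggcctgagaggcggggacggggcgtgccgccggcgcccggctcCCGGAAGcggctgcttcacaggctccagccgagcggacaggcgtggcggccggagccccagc
ABCF1: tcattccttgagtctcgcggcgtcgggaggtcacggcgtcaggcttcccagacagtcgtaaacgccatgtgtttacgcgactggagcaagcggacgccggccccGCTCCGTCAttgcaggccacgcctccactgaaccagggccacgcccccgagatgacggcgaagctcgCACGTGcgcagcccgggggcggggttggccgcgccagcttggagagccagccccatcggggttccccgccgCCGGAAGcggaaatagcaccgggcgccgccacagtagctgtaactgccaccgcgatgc
ABCF2: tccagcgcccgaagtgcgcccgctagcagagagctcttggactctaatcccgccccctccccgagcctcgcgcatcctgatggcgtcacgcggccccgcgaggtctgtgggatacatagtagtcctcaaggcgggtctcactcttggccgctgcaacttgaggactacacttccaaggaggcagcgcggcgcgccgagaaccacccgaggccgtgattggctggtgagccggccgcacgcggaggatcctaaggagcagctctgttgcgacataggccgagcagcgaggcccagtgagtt
ABCA5: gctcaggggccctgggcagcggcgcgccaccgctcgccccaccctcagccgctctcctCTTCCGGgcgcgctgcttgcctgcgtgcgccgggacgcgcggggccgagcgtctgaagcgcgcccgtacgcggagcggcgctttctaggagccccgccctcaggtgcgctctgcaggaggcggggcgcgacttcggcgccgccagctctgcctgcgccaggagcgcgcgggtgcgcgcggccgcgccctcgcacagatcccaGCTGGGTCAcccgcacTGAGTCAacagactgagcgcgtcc
ABCC4 held an ARE core beginning at -149 from the start and an ETS core at -12. ABCF1 held an ARE core at -146, an E-box at -79 and an ETS core at -8. None of the 5 motifs was found in the ABCF2 window, and ABCA5 held an ETS core at -192, an ARE core at 10 and an AP-1 site at 26. Of all 35116 RefSeq windows of this length, 13.3% held the ARE core, 10.3% the ETS core, 7.26% the E-box, 4.95% the AP-1 site and 2.92% the M-box. Windows were listed for 35 of the 45 members, 14 of them tested. Over their 53 windows, the ARE core was in 12, the E-box in 9, the ETS core in 5, the AP-1 site in 2 and the M-box in 0. A match is a run of letters and not a shown binding site.

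Between the lines in dabrafenib, all under a single run stamp, members higher in A375-BIR included ABCC3 and ABCE1, and ABCA5, ABCA8, ABCB6, ABCB9, ABCC2 and ABCF1 were lower. In all 3 were higher and 6 lower, 9 of 18 tested members (50%), where 42.7% of all genes were called, 22.6% higher and 20.2% lower. Among drug efflux members 1 of 5 was higher and 1 lower. The median log2 difference was -0.30 over tested members and 0.043 over all genes, and -0.18 and 0.16 with plain library totals, where 3 members were higher and 5 lower. The calls of ABCA5 and ABCF1 held under every alternative that gave a value. So did that of ABCB9, which passed the filter through A375 libraries alone. The calls of ABCA8, ABCB6 and ABCC3, which passed it through a single group, also held. DESeq2 lost the calls of ABCC2 and ABCE1.

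Between the lines in DMSO, ABCC3 and ABCE1 were higher in A375-BIR, and those lower included ABCA5, ABCA8, ABCB1, ABCB6, ABCB9, ABCC2, ABCC4, ABCF1 and ABCF2. In all 2 were higher and 10 lower, 12 of 18 tested members (66.7%), where 51.8% of all genes were called, 25.1% higher and 26.7% lower. Among drug efflux members 1 of 5 was higher and 3 were lower. The median log2 difference was -0.91 over tested members and 0.0052 over all genes. With plain library totals these medians were -0.51 and 0.41, the members counted 3 higher and 7 lower, and all genes 3842 higher and 1718 lower against 2567 and 2731 with TMM. DESeq2 lost the calls of ABCB6, ABCC2, ABCC3 and ABCE1. This comparison, the response of A375 and the difference between responses share the A375 DMSO library.

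**Figure D5:**
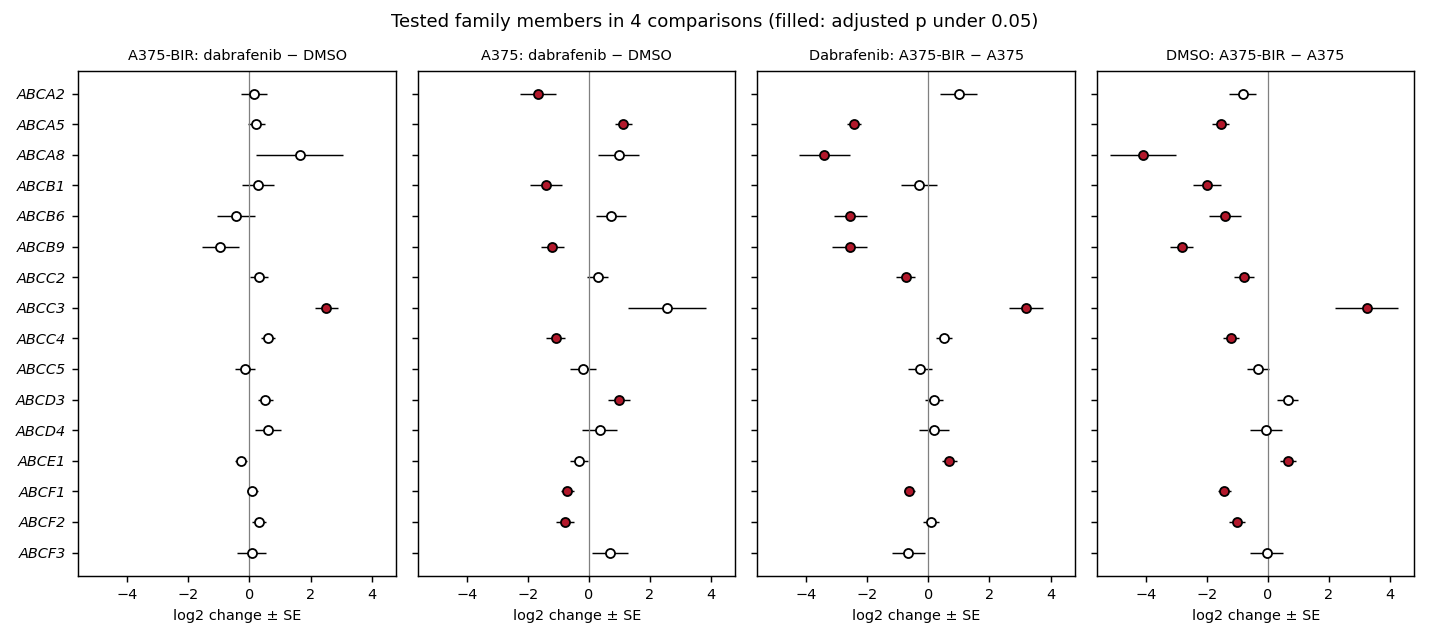
Log2 change with its approximate standard error (x axis) of the tested members reported by name (y axis) in the responses of A375-BIR and A375 to dabrafenib and between A375-BIR and A375 in dabrafenib and in DMSO; filled points have an adjusted p under 0.05. The A375-BIR response has 1 filled point, ABCC3, and the comparison of the lines in DMSO has filled points mostly left of 0.

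Genes of related pathways were counted from lists, to be read against the share of all tested genes called, which was 2.46% for A375-BIR given dabrafenib, 38.6% for A375 given dabrafenib, 22.6% in the difference between responses, 42.7% between the lines in dabrafenib and 51.8% in DMSO. Of the ABC proteins under other symbols, TAP1 and TAP2, which load peptides for antigen presentation, were tested, and CFTR was not. TAP1 rose with dabrafenib in A375 (1.22 ± 0.45, adjusted p = 0.0304), with values that overlapped the DMSO library, and TAP2 was higher in A375-BIR than in A375 in DMSO (1.57 ± 0.34, adjusted p = 0.000242). Among 12 tested genes of the LXR and SREBP axis, which controls sterol export and synthesis, none was called in the response of A375-BIR and 1 fell in A375. Between the lines 2 were higher and 3 lower in dabrafenib, and 2 higher and 4 lower in DMSO, with the retinoid X receptor gene RXRB, whose product pairs with LXR, lower in A375-BIR (-1.35 and -1.65). Of 12 tested drug conjugation and NRF2 genes, none was called in the response of A375-BIR, while 5 rose and 4 fell in A375. At an unadjusted p under 0.05 edgeR counted 6 of these 12 in the response of A375-BIR. Between the lines 3 were higher and 5 lower in dabrafenib and 4 higher and 4 lower in DMSO (8 of 12, 66.7%, in each), with the microsomal glutathione transferase MGST1 higher (6.71 and 9.42) and NQO1 lower (-1.02 and -2.67) in A375-BIR. Of 9 tested regulators of drug efflux genes, none was called in A375-BIR and 1, YBX1, fell in A375 (-2.04). Between the lines 3 were higher and 4 lower in dabrafenib and 2 higher and 5 lower in DMSO (7 of 9, 77.8%, in each), with HIF1A higher (0.91 and 1.75) and AHR lower (-0.93 and -1.21). Of 11 translation partners of ABCE1 and ABCF proteins, 1 fell in A375-BIR (MCTS1, -0.75 ± 0.18), 2 rose and 1 fell in A375, 2 were higher and 1 lower between the lines in dabrafenib, and 3 higher and 2 lower in DMSO. The difference between responses was called for none of the LXR and SREBP genes, 6 of the NRF2 genes (2 higher and 4 lower), 1 regulator and 2 translation partners (1 higher and 1 lower).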

How the data were processed

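Human melanoma lines were profiled by 3′ tag RNA sequencing (Lexogen QuantSeq, forward kit, 250 ng RNA), per the labels' protocols. The authors deposited raw read counts per gene for each library, with no normalization, on build hg38 per the submitters' processing notes; which aligner, counter, annotation and strand option they used is not given in the sources used here. Lines naming no gene held 68.9% to 79.6% of each file's reads and were left out. Of 12 files, 10 list human identifiers and 2, A375 DMSO replicates 2 and 3, list mouse ones and were not used, so that A375 DMSO, planned with 3 libraries, entered with 1 and borrows the spread of the other groups. Positions, types and overlaps came from GENCODE 29.

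Genes passing filterByExpr (minimum count 10; 10236 genes) were fitted in edgeR 4.0.16 (R 4.3.3) with TMM scaling, 1 coefficient per group, 10 libraries and 6 residual degrees of freedom. The quasi-likelihood test gave p-values adjusted by Benjamini-Hochberg over all genes; standard errors are the log2 change over the root of its F statistic. The depth sets the precision, and counting intervals (95%, exact) and limits of a count of 0 cover counting error only. Alternatives were RLE scaling, plain totals, no filter, a mean count of at least 50, DESeq2 1.42.0, only the libraries compared, a replicate block and leaving out each library. Members are accounted for by name, except a few items not reported here, with every library's value for members called in any comparison and for drug efflux members with at least 10 counts; up to 4 called genes with the smallest p could be named from each of 5 other lists. Members and lists were chosen with earlier results of these data known.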

Additional observations from a re-analysis of the deposited data

Results flagged for a closer look

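The responses of A375-BIR and A375 to dabrafenib differed by the test of the difference itself for 3 members. For ABCC4 the response of A375-BIR exceeded that of A375 by 1.70 on the log2 scale (edgeR adjusted p = 0.0012). The same difference was 0.80 for ABCF1 (adjusted p = 0.0346) and 1.09 for ABCF2 (adjusted p = 0.0297). The call of ABCC4 held under every alternative that gave a value. Those of ABCF1 and ABCF2 were lost in 6 and 5 of 9 fits without 1 library. Both were also lost with plain library totals, DESeq2 and the replicate block. All 3 differences rest on the single A375 DMSO library, which carries another run stamp than the other human libraries. Effects that go with the stamp and with the group cannot be told apart. No group had 4 or more libraries, so that no search for a library far from its group was made. Replicate libraries differed beyond counting error by unequal amounts. A chi-square over its degrees of freedom, near 1 for counting error alone, was 4.26 to 4.89 between A375-BIR dabrafenib libraries. It was 1.29 to 1.74 in A375-BIR with DMSO and 1.09 to 2.45 in A375 with dabrafenib. The fit shared its estimate of the spread over all groups, and what this does to the p-values was not tested.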

How the results depend on the processing

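Limits include depth, with tested members at 37 to 2925 counts over 10 libraries, and the single A375 DMSO library. Among called members no direction reversed under any alternative, and calls that held in every one that gave a value were 1 of 1 for A375-BIR given dabrafenib, 2 of 10 for A375 given dabrafenib, 1 of 3 in the difference, 6 of 9 between the lines in dabrafenib and 7 of 12 in DMSO. Some held calls belong to members that passed the filter only in the group or line where they were high, and these are no independent support. For A375-BIR given dabrafenib the held call was such a member, ABCC3. Between the lines such members were ABCA8, ABCB6, ABCB9 and ABCC3 in dabrafenib, and included ABCA8, ABCB1 and ABCB9 in DMSO. Without the A375 DMSO library, the 3 comparisons that use it gave no value.

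For members called, the response of A375-BIR gave 1, but 0 (4 members tested, without ABCC3) when the mean count had to reach 50, 0 with DESeq2, which gave ABCC3 no adjusted p, and 1 without any 1 library. The response of A375 gave 10, but 3 with plain library totals, 2 with a mean count of at least 50, 3 with DESeq2, 4 with the replicate block and 3 to 10 without 1 library. The difference gave 3, but 1 with DESeq2, 1 with the replicate block and 1 to 5 without 1 library. Between the lines in dabrafenib 9 became 2 (mean of at least 50) and 4 with only the libraries compared (10 members tested), and 12 in DMSO became 4 with a mean count of at least 50. The smaller counts at a mean of at least 50 go with fewer members tested, and the cause of the other moves was not tested.

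For all genes called, the response of A375-BIR gave 252, but 137 with a mean count of at least 50, 106 with DESeq2, 125 with only the libraries compared, and 106 to 558 without 1 library (558 without A375-BIR dabrafenib replicate 2, and 106, 140 and 107 without A375-BIR DMSO replicate 1, 2 and 3). Requiring a mean of 50 counts gave 1669 in place of 3948 genes in the response of A375, 1133 in place of 2313 in the difference, 1764 in place of 4374 between the lines in dabrafenib and 1895 in place of 5298 in DMSO. DESeq2 gave 2485 in the response of A375 and 1153 in the difference.

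Whether the replicate numbers pair the libraries could not be settled, since groups of 3 libraries with low counts can hide a shared effect. Correlations of deviations between libraries of the same number ran from -0.12 to 0.11, with 1 of 9 over 0.1. Between libraries of unlike number they ran from -0.11 to 0.14, with 1 of 18 over 0.1. With the replicate block the genes called were 239 for A375-BIR given dabrafenib, 3296 for A375 given dabrafenib, 1750 in the difference, 4292 between the lines in dabrafenib and 4579 in DMSO.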
